A study of Mus musculus with 12 samples.

Results

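Interferon-stimulated genes were examined in mouse liver 4 days after an adenovirus had been given through the tail vein. The set held 39 genes named from general knowledge of the interferon response, and a gene was measured where a probe set was annotated to that gene alone. Of the 39 genes, 35 were measured among 22180 named genes on the array, each by 1 probe set. Oas1a, Gbp2 and Ifi27l2a were listed only with other genes on their probe sets, and Ifi44 had no probe set under its symbol, so these 4 were not analysed here. The 6 GFP livers received an Ad5 virus carrying green fluorescent protein (Ad-GFP), and the 6 hApoF livers an Ad5 virus carrying human apolipoprotein F (Ad-hApoF), a lipoprotein-bound secreted protein. All animals were male C57BL6/J mice of 8 to 10 weeks, killed at 3 pm after 6 h of fasting. Total liver RNA was hybridised to 1 array per sample, and values are log2 RMA values of the probe sets, so that a difference of 1 is a doubling. The labels give no viral dose and no promoter for the transferred genes. They also leave unsaid whether each array stands for a separate mouse, so the p-values rest on array-to-array spread, which may be partly technical. Since every liver had received a virus and no uninjected liver was used here, the values compare the inserted genes and do not show what the virus itself did to these transcripts.

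Interferons are secreted when a cell senses foreign nucleic acid, and they bind receptors that switch on the STAT and IRF transcription factors. Type I and type III interferons act mainly through a complex that includes Stat2 and Irf9 on the interferon-stimulated response element (ISRE), and interferon gamma acts mainly on the gamma-activated site (GAS). The induced proteins block virus entry, degrade viral RNA, slow translation or attack the compartments in which microbes grow. In liver they are produced by hepatocytes as well as by Kupffer cells, endothelial cells and incoming leukocytes, and adenovirus vectors given by vein are taken up largely by the liver.

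Promoter sequences are shown first because these motifs are the feature by which the genes are usually grouped, and membership was not chosen by them. RefSeq windows on GRCm38.p6, from 250 bases before to 50 bases after a start site, were listed for 28 of the 39 genes and for 25 of the 35 measured ones. The ISRE core was searched as GAAA, any 2 bases and GAAA again, on both strands with overlapping matches kept, and the GAS core as TTCNNNGAA, which reads the same on both strands. Of the 25 measured genes with a window, 15 (60.0%) held the ISRE core, against 3.87% of 16990 genes on the array with a window. The GAS core was in 6 of them (24.0%), against 9.15%. Both cores were in 4 genes and neither in 8. The stretches below are from the genes the results describe and lie wholly upstream of the start site, in the direction of transcription, with the matched bases in capitals.
Isg15: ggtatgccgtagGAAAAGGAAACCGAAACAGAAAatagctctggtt
Ifit1: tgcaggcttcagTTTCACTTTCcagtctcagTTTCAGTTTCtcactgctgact
Rsad2: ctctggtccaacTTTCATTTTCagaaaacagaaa
Bst2: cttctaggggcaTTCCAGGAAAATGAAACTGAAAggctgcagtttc
Irf1: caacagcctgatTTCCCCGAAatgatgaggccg
Gbp3: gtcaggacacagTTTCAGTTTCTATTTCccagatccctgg
Irgm1: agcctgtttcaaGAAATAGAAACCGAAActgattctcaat
Igtp: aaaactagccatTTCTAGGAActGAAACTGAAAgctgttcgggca
The Isg15 stretch (chr4:156200863-156200908, minus strand) holds 3 overlapping ISRE matches between 78 and 57 bases upstream of the start. In Ifit1 (chr19:34640773-34640825, plus strand) 2 separate matches lie in the opposite orientation, between 104 and 76 bases upstream. The Rsad2 stretch (chr12:26456551-26456584, minus strand) has 1 match in the opposite orientation. Bst2 (chr8:71537575-71537620, minus strand) carries a GAS match that overlaps the first of 2 overlapping ISRE matches. Igtp (chr11:58199499-58199543, plus strand) carries a GAS match next to 1 ISRE match, and both lie within 45 bases of the start. Gbp3 (chr3:142559987-142560026, plus strand) and Irgm1 (chr11:48871423-48871462, minus strand) have 2 overlapping ISRE matches each, those of Gbp3 in the opposite orientation. The Irf1 stretch (chr11:53769912-53769944, plus strand) has a GAS match alone. A match describes these letters only and is not a measured binding site.

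None of the 35 interferon-stimulated genes passed the limma test between hApoF and GFP livers after Benjamini-Hochberg adjustment over all genes, in either direction, where 6.91% of all genes did (2.11% higher and 4.80% lower in hApoF). At an unadjusted limma p under 0.05 there were 8 of the 35 (22.9%), against 21.3% of all genes. Of these 8, Mx2 was the 1 on the higher side (2.9%, against 10.1% of all genes) and 7 were on the lower side (20.0%, against 11.1% of all genes). In no member did the values of the groups separate without overlap, which they did in 4.98% of all genes. The exact permutation test, adjusted over all genes, called 0 of the 35. That is the same result and no further evidence, since after adjustment only genes without overlap passed it (1104 genes on both counts). The difference, hApoF minus GFP, was negative in 26 of the 35 genes and positive in 9. Its median was -0.14, beside 0.03 over all genes, of which 42.3% were negative. The median of the 35 was -0.07 without GFP 3, -0.09 without hApoF 7 and -0.10 after a further quantile normalization. Of the 35 genes, 32 had a mean above the median of all gene means. The upper quartile of all values ran from 6.67 to 6.81 in GFP arrays and from 6.67 to 6.73 in hApoF arrays. The part of that shift in the median of the 35 was not tested. Since the whole liver was measured, fewer cells of a type and less RNA per cell cannot be told apart.

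The 95% intervals of the limma fit set what these arrays leave possible. For 27 of the 35 genes the interval lay within 1.5-fold in both directions, and for 34 within 2-fold, Igtp being the exception. A rise of 1.5-fold or more in hApoF livers lay outside the interval of every one of the 35 genes, and a rise of 1.25-fold or more outside that of 32. The intervals are not adjusted for the number of genes.

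**Figure D1:**
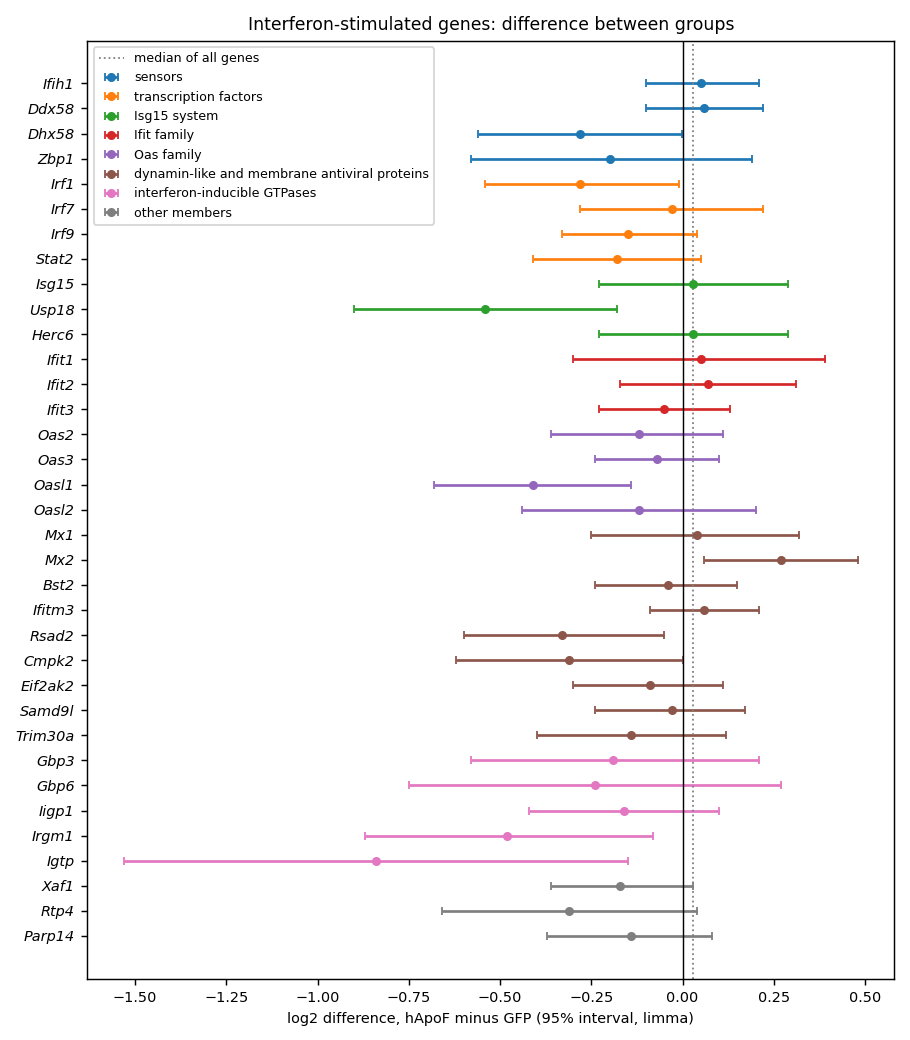
Difference in log2 value between hApoF and GFP livers (x axis) for each of the 35 genes (y axis, coloured by role), with the 95% interval of the limma fit. Most points lie left of 0, the median of the 35 differences is -0.14 (-0.07 without GFP 3), and the widest interval is that of Igtp, from -1.53 to -0.15.

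Among the sensors, Ifih1 and Ddx58, which encode the RNA helicases MDA5 and RIG-I, had nearly equal levels in both groups. Ifih1 ranged from 8.65 through a median of 8.80 to 8.90 in GFP livers and from 8.73 through 8.83 to 8.98 in hApoF livers, and its difference was 0.05 (SE 0.07, 95% interval -0.10 to 0.21). Ddx58 differed by 0.06 (SE 0.08, 95% interval -0.10 to 0.22). These were among the narrowest intervals of the set. Dhx58, the helicase LGP2 that tunes the other two, had values of 6.46, 6.61 and 6.88 (lowest, median, highest) in GFP livers and 5.80, 6.45 and 6.65 in hApoF livers. The groups overlapped, hApoF 12 held the lowest value, and the difference of -0.28 (SE 0.13) did not pass (limma adjusted p = 0.233). Zbp1, a sensor of Z-form nucleic acid, differed by -0.20 (SE 0.18) and reached 8.41 in GFP 3, while the other GFP arrays lay between 7.13 and 7.75.

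The 4 transcription factor genes had negative differences, and none passed. Irf1, an early target of interferon gamma, ran from 7.14 through 7.48 to 7.91 in GFP livers and from 6.95 through 7.16 to 7.55 in hApoF livers. Its difference was -0.28 (SE 0.12, limma adjusted p = 0.207), with GFP 3 highest and hApoF 7 lowest. Stat2 and Irf9, partners in the complex that binds the ISRE, differed by -0.18 (SE 0.11) and -0.15 (SE 0.09). Irf7, which amplifies type I interferon production, differed by -0.03 (SE 0.12, 95% interval -0.28 to 0.22), a value whose sign turned without GFP 3 (0.06), hApoF 7 or hApoF 12.

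Isg15, a ubiquitin-like protein that is attached to other proteins, averaged 5.75 ± 0.13 (SD, n = 6) with the GFP virus and 5.79 ± 0.31 (SD, n = 6) with the hApoF virus. Its difference was 0.03 (SE 0.12, limma adjusted p = 0.912), with the sign turning without GFP 2, hApoF 8 or hApoF 11. Herc6, the main Isg15 ligase of the mouse, differed by 0.03 as well (SE 0.12), and its sign turned without GFP 4, hApoF 10 or hApoF 11. The protease gene Usp18 stood apart in size. Usp18 removes Isg15 from its targets and dampens the type I interferon receptor. In GFP livers its lowest value was 8.36 and its median 8.58, and the highest, in GFP 3, stood 1.56-fold above the lowest. In hApoF livers it ran from 7.32 through 8.19 to 8.51. The groups overlapped where hApoF 9 (8.51) and hApoF 10 (8.41) exceeded GFP 4 (8.36), and hApoF 7 was far the lowest. The difference was -0.54 (SE 0.17, a 1.46-fold lower level, 95% interval -0.90 to -0.18) and did not pass (limma adjusted p = 0.067, exact permutation p = 0.0087 before adjustment). It passed without hApoF 9 (limma adjusted p = 0.0436), without GFP 4 (0.0496) and among the brighter genes alone (0.0355). Leaving out hApoF 9, the highest hApoF array, or GFP 4, the lowest GFP array, can only enlarge the difference. With any 1 array left out the difference ran from -0.63 to -0.39.

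The Ifit genes, whose products bind viral RNA that lacks the cap marks of the host, differed little. The differences were 0.05 for Ifit1 (SE 0.16), 0.07 for Ifit2 (SE 0.11) and -0.05 for Ifit3 (SE 0.08, 95% interval -0.23 to 0.13). Ifit1 varied more among hApoF livers (6.28 to 7.29) than among GFP livers (6.72 to 7.13), and its low values came from hApoF 7 (6.28) and hApoF 12 (6.57). Whether the spreads differ was not tested. The sign of the Ifit1 value turned without hApoF 9, 10 or 11, that of Ifit2 without GFP 4 and hApoF 12 together, and that of Ifit3 without hApoF 9 or after a further quantile normalization.

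The Oas genes encode enzymes that make the messenger activating RNase L, or relatives of them. Oas2, Oas3 and Oasl2 differed by -0.12 (SE 0.11), -0.07 (SE 0.08) and -0.12 (SE 0.15). Oasl1, a catalytically inactive relative that restrains Irf7 translation, had the lowest unadjusted p of the 35 genes. Its values were 6.66, 6.95 and 7.10 in GFP livers (lowest, median, highest) and 6.01, 6.53 and 6.92 in hApoF livers. A single hApoF array, hApoF 9 (6.92), lay within the GFP range, beside 5 below it. The difference was -0.41 (SE 0.13, 95% interval -0.68 to -0.14, limma adjusted p = 0.064). It passed without hApoF 9 (limma adjusted p = 0.021), with trend and robust settings (0.0427), with array weights (0.0483) and among the brighter genes alone (0.0323). The difference of Oasl1 ran from -0.50 to -0.31 with any 1 array left out.

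Among the genes of antiviral effectors, Mx2 and Rsad2 had the lowest unadjusted p. Mx2, a dynamin-like GTPase, was the 1 member on the higher side at an unadjusted p under 0.05. It ran from 5.86 through 5.95 to 6.29 in GFP livers and from 6.04 through 6.33 to 6.48 in hApoF livers, and differed by 0.27 (SE 0.10, limma adjusted p = 0.114). The 3 highest values were those of hApoF 8, 11 and 9, but GFP 2 (6.29) stood above hApoF 10, 7 and 12, so the groups overlapped. It passed after a further quantile normalization (0.33, limma adjusted p = 0.0465). Mx1, of which C57BL/6 mice carry a defective allele, lay between 3.60 and 4.37 in all arrays, below every array's median, and its difference of 0.04 (SE 0.14) turned negative under several settings.

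Rsad2 encodes viperin, which makes a chain-terminating nucleotide, and Cmpk2, its neighbour on the chromosome, a nucleotide kinase. Rsad2 was even among GFP livers (6.79, 6.91 and 6.99) and uneven among hApoF livers (6.09, 6.54 and 7.13). The hApoF group held both the highest array, hApoF 9, and the lowest, hApoF 12. Its difference was -0.33 (SE 0.13, limma adjusted p = 0.161), and it passed without hApoF 9 (-0.44, limma adjusted p = 0.0223). Cmpk2 differed by -0.31 (SE 0.15), again with hApoF 12 (6.15) and hApoF 7 (6.38) lowest. The other 5 effector genes lay between -0.14 and 0.06. They were Bst2, the tether that holds budding virus (-0.04, SE 0.09), Ifitm3, which blocks virus entry from endosomes (0.06, SE 0.07), Eif2ak2, the translation-blocking kinase PKR (-0.09, SE 0.10), Samd9l (-0.03, SE 0.10) and Trim30a (-0.14, SE 0.12). The sign of Bst2 turned without GFP 3, and that of Samd9l without GFP 5 or hApoF 7 and after a further quantile normalization.

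The interferon-inducible GTPases, some of which coat and disrupt the vacuoles of intracellular microbes, are strongly induced by interferon gamma. Those measured had a median within-group SD of 0.38, beside 0.23 over the 35 genes. Iigp1, at 0.23, did not share the wide spread, and that of Gbp6 lay at dim values. Igtp had the widest spread of the set. Its values were 9.69, 9.18, 10.32, 8.03, 8.80 and 9.13 in GFP 1 to 6 and 7.59, 8.08, 8.99, 8.70, 8.84 and 7.90 in hApoF 7 to 12. GFP 3 stood 4.90-fold above GFP 4 within the control group, and the hApoF arrays spanned 2.64-fold. The difference between groups was -0.84 (SE 0.32, a 1.79-fold lower level, 95% interval -1.53 to -0.15) and did not pass (limma adjusted p = 0.145, exact permutation p = 0.052). Without GFP 4, the lowest GFP array, the difference was -1.07 and passed (limma adjusted p = 0.0325). Over the 12 fits that left out 1 array it ran from -1.07 to -0.61, and it passed in no other of them. The within-group SD of Igtp, 0.68, exceeded that of 99.8% of all genes.

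Irgm1, a regulator of the same GTPase family, followed a like order, with 6.64, 7.15 and 7.74 (lowest, median, highest) in GFP livers and 6.27, 6.77 and 7.20 in hApoF livers. GFP 3 was again highest and hApoF 7 lowest, and the difference of -0.48 (SE 0.18) did not pass (limma adjusted p = 0.146). Gbp3 and Gbp6, guanylate-binding proteins, differed by -0.19 (SE 0.18) and -0.24 (SE 0.24), and Iigp1 by -0.16 (SE 0.12). Gbp6 lay below every array's median, between 2.59 and 4.33. All 5 differences were negative, and all 5 genes had their highest GFP value in GFP 3.

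**Figure D2:**
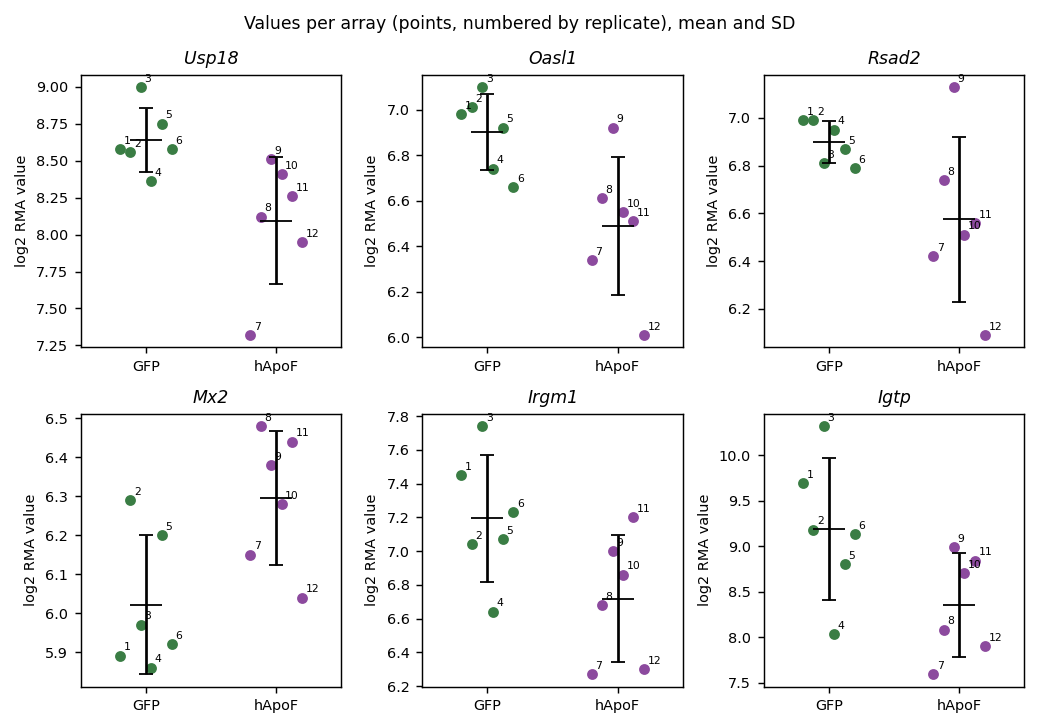
Log2 RMA values (y axis) of Usp18, Oasl1, Rsad2, Mx2, Irgm1 and Igtp in each array (points, numbered by replicate), with the mean and SD of the 6 GFP and 6 hApoF arrays; these genes, picked after their values were seen, are 6 of the 8 with an unadjusted p under 0.05. In every panel the groups overlap, and hApoF 7 or hApoF 12 holds the lowest hApoF value.

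The remaining genes also had negative differences. Rtp4, a receptor-transporting protein, differed by -0.31 (SE 0.16) and was lowest in hApoF 7 (7.30). Xaf1, a promoter of cell death, differed by -0.17 (SE 0.09), and Parp14, an ADP-ribosyltransferase, by -0.14 (SE 0.10). None of the 3 passed (limma adjusted p = 0.292, 0.330 and 0.468).

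The members moved together from array to array within each group. GFP 3 held the highest GFP value in 24 of the 35 genes (68.6%), against 19.9% of all genes. GFP 4 held the lowest in 24 genes (68.6%), against 22.3% of all genes. In the hApoF group, hApoF 7 was lowest in 21 genes (60.0%, against 16.5%) and hApoF 9 and hApoF 11 were highest in 14 and 12. The median distance of the 35 genes from their own 12-array means was 0.32 in GFP 3, 0.11 in GFP 1, -0.22 in GFP 4 and -0.28 in hApoF 7, while that of all genes lay between -0.02 and 0.01 in every array. Among the 5 GTPases the same median was 0.89 in GFP 3 and -0.43 in GFP 4. The within-group SD exceeded the median of all genes in 27 of the 35 members, and in 10 it lay above the 90th percentile of all genes. The same arrays stood apart in other lists. GFP 3 was highest and GFP 4 lowest of the GFP group in 72.9% and 52.1% of the further 48 interferon-stimulated genes described later, and in 66.7% and 88.9% of 9 cell cycle genes. GFP 3 was also highest in 64.3% of nucleic acid sensing genes, 54.5% of Kupffer cell and macrophage markers and 7 of 14 T and NK cell markers, but in 10.0% of hepatocyte markers. Within the GFP group the upper quartile of all values was highest in GFP 3 (6.81) and lowest in GFP 4 (6.67). The pattern is thus neither particular to the 35 genes nor shared by all lists, and the counts describe the arrays and carry no test.

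**Figure D3:**
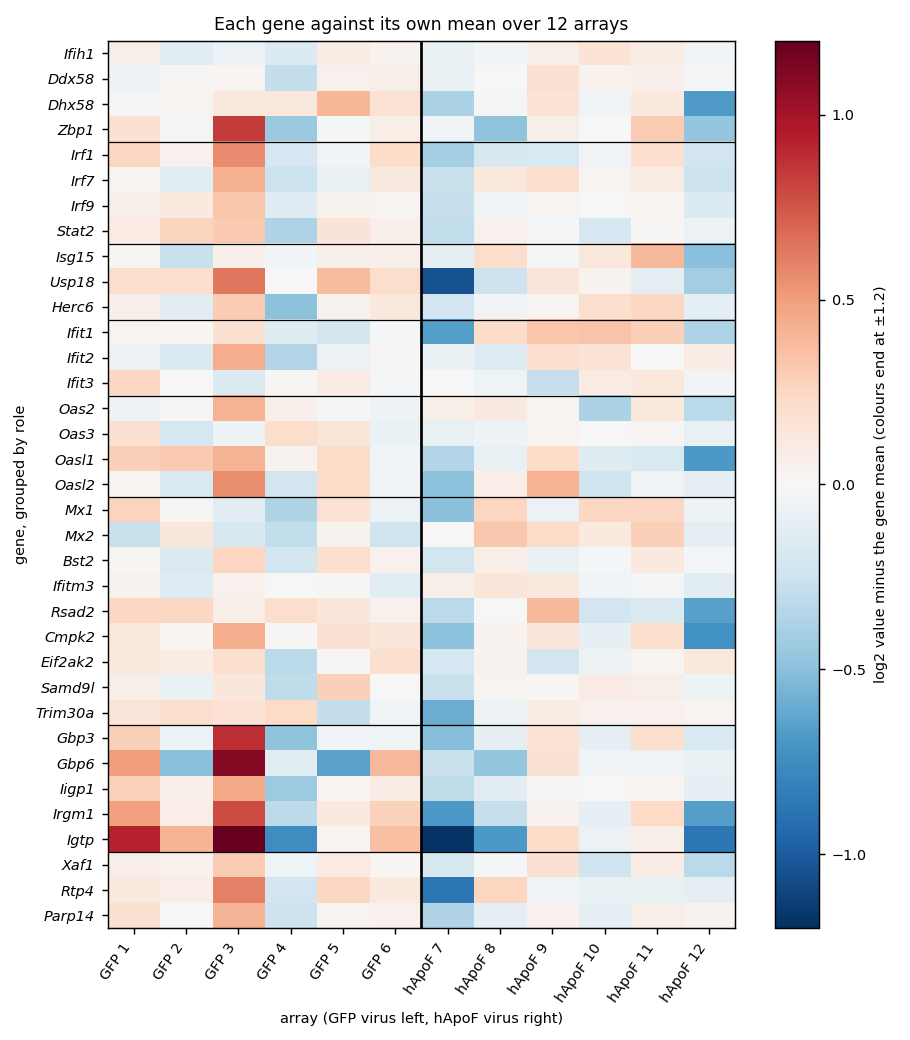
Log2 value of each gene (rows, grouped by role) minus its own mean over the 12 arrays, for GFP arrays (left of the line) and hApoF arrays (right); red is above and blue below the gene's mean. GFP 3 is red across most rows, with a median of 0.32, and hApoF 7 blue, with a median of -0.28.

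**Figure D4:**
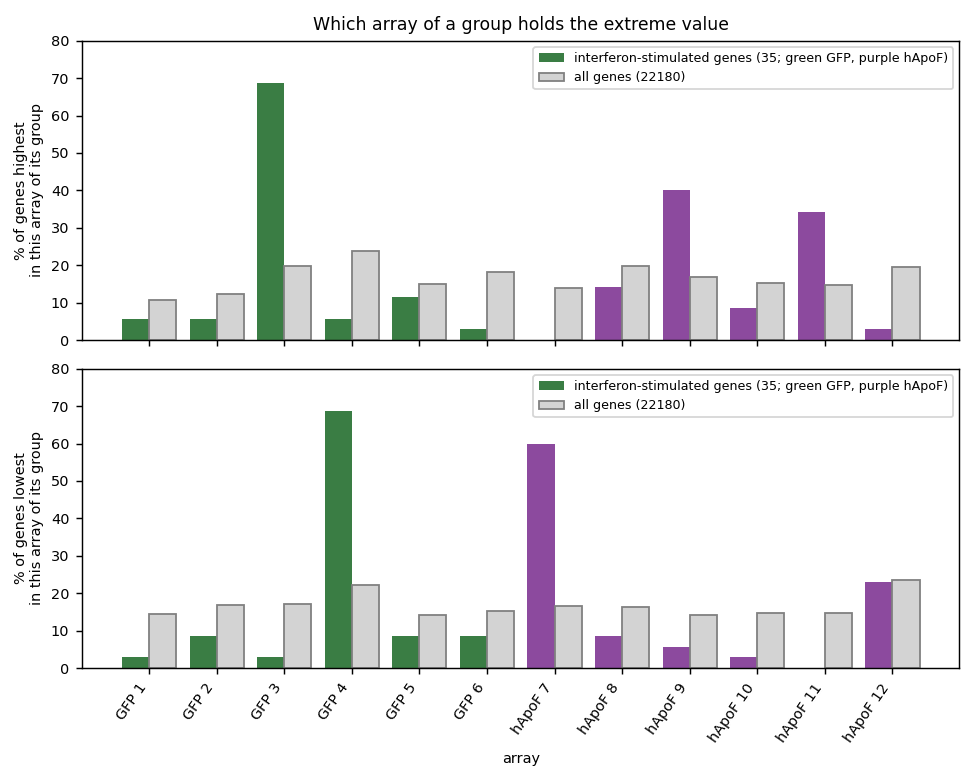
Percentage of genes (y axis) whose highest (top) or lowest (bottom) value within a group fell in each array (x axis), for the 35 interferon-stimulated genes (coloured bars) and all genes (grey bars). GFP 3 holds the highest GFP value and GFP 4 the lowest in 68.6% of the 35 genes each.

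The differences were also set beside the motif content. The 15 genes with an ISRE core had a median difference of -0.07, with 10 negative, and the 10 genes with a window but no ISRE core a median of -0.14, with 8 negative. The range with the core was -0.84 (Igtp) to 0.06, and without it -0.41 (Oasl1) to 0.07. The measured genes without a window, Usp18, Mx2 and Dhx58 among them, are in neither group. These values are a description without a test.

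Other genes of the pathway were taken from 4 lists. Of 12 interferon genes 0 passed in either direction, and 0 had an unadjusted p under 0.05 by limma or by the exact permutation test. Ifna2, Ifna9, Ifna11, Ifna13, Ifnb1, Ifne, Ifng and Ifnk lay below every array's median in all arrays. Ifnb1 ran from 2.62 to 3.27 and Ifng from 4.05 to 4.69, where the lowest array median was 4.93. At such values an absent and an unchanged transcript cannot be told apart. The lowest p were those of Ifna2 (0.21, SE 0.15) and Ifna13 (0.16, SE 0.12), members of a family of near-identical genes whose probe sets may not tell them apart. Of 16 genes for interferon receptors and JAK-STAT signalling, 0 passed and 6 (37.5%, against 21.3% of all genes) had an unadjusted p under 0.05, 4 higher and 2 lower. Ifnar2, a subunit of the type I interferon receptor chosen here after its values were seen, lay between 9.65 and 9.77 in GFP and between 9.78 and 9.87 in hApoF livers. The difference was 0.13 (limma adjusted p = 0.199). It was the 1 gene of the list whose groups did not overlap, and for that reason also the 1 that passed the exact permutation test. Il10rb, a subunit of the type III interferon receptor, ran from 7.29 through 7.51 to 7.69 in GFP and from 7.04 through 7.24 to 7.43 in hApoF livers (difference -0.26, SE 0.08, limma adjusted p = 0.073). It passed without GFP 4 (0.032) or hApoF 12 (0.0462), and its difference ran from -0.31 to -0.22 with any 1 array left out. Ifngr2, a subunit of the interferon gamma receptor, differed by 0.21 (SE 0.08, limma adjusted p = 0.140) and passed after a further quantile normalization (0.0464).

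Among 14 genes of nucleic acid sensing and its adaptors, 1 fell (4.80% of all genes did) and 0 rose (2.11%), the median difference being -0.03. That gene was Trim25, a ubiquitin ligase that activates RIG-I, which ran from 8.61 through 8.79 to 9.02 in GFP and from 8.39 through 8.50 to 8.63 in hApoF livers. Trim25 fell by 0.32 (SE 0.08, limma adjusted p = 0.024). It no longer passed when GFP 2 (0.0642), GFP 3 (0.0598), GFP 6 (0.0501) or hApoF 7 (0.0515) was left out. Its groups overlapped, so it could not pass the exact permutation test (adjusted p = 0.0617).

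A further list of 48 measured interferon-stimulated genes outside the 35 held 4 that fell, Trim25 again among them, and 0 that rose, with a median difference of -0.09. The share that fell can be read beside the 4.80% of all genes that were lower. Differences were negative in 35 of the 48 (72.9%, against 42.3% of all genes). At an unadjusted limma p under 0.05, 10 were lower (20.8%, against 11.1% of all genes) and 1 higher (2.1%, against 10.1%). Lgals3bp, a secreted glycoprotein, ran from 9.65 through 9.86 to 10.36 in GFP livers and from 8.69 through 9.10 to 9.50 in hApoF livers. It fell by 0.82 (SE 0.14, a 1.77-fold lower level, limma adjusted p = 0.0020), and no hApoF array reached a GFP array. Pml, the organiser of nuclear bodies, fell by 0.42 (SE 0.09, limma adjusted p = 0.0085). Ube2l6, the enzyme that passes Isg15 to its ligases, fell by 0.33 (SE 0.08, limma adjusted p = 0.017). In Pml and Ube2l6 the groups did not overlap either, and the calls of Lgals3bp, Pml and Ube2l6 held in every fit that left out 1 array. Tap1, named after its values were seen, also had groups without overlap but did not pass (-0.49, limma adjusted p = 0.051). That made 4 genes of the list without overlap, beside 4.98% of all genes, and the same 4 passed the exact permutation test. With 1 array left out the number of lower genes in this list ran from 3 to 8, and it was 8 without GFP 4.

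Cell type markers and cell cycle genes moved between the same groups. Of 10 hepatocyte markers 0 passed the limma test, and 4 (40.0%, against 21.3% of all genes) had an unadjusted limma p under 0.05. All 10 differences were positive, against 57.7% of all genes. The exact permutation test called 3, against 4.98% of all genes. Their list mean ran from 11.79 to 11.94 in GFP and from 11.92 to 12.08 in hApoF livers, while the probe set of Ass1, named after its values were seen, lay between 5.87 and 7.11. The counts of other markers that rose can be read beside the 2.11% of all genes that were higher. Of 11 Kupffer cell and macrophage markers 2 rose, including Clec4f (1.26, limma adjusted p = 0.010). Differences were positive in 10 and negative in 1, Adgre1 (-0.13). The list mean ran from 6.78 to 7.79 in GFP and from 7.25 to 8.04 in hApoF livers. Of 8 endothelial markers 2 rose, including Kdr (0.44), with list means of 8.25 to 8.76 and 8.59 to 8.97 and all 8 differences positive. Of 8 stellate cell and fibroblast markers 3 rose, including Hgf (0.40), with list means of 7.31 to 7.66 and 7.59 to 7.94. Their differences were positive in 6 and negative in 2, Des (-0.09) and Col1a1 (-0.0044). Of 9 monocyte and neutrophil markers 2 rose, including Ccr2 (0.46), with list means of 4.78 to 5.24 and 4.88 to 5.49. Here 7 differences were positive and 2 negative, those of Ly6c2 (-0.16) and Itgam (-0.13). No marker of plasmacytoid dendritic cells (7 measured), T and NK cells (14) or B and plasma cells (5) passed the limma test. At an unadjusted limma p under 0.05 there were 0, 3 and 2 of them (0.0%, 21.4% and 40.0%, against 21.3% of all genes). The exact permutation test called none of them either. Clec4f and Kdr, whose groups overlapped, could not pass that test (adjusted p = 0.0617 for both). All 9 cell cycle genes fell, against 4.80% of all genes, with list means of 7.13 to 7.83 in GFP and 5.21 to 6.29 in hApoF livers. The part of these shifts in the interferon-stimulated values was not tested.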

How the data were processed

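Liver RNA of 12 mouse samples (6 GFP, 6 hApoF) was read on expression arrays. The deposited table holds log2 values of 35145 probe sets, and per the submitters' processing notes the authors used oligo and RMA. Versions and annotation build: not given in the sources used here. RMA draws arrays to a common distribution, so shifts of all genes cannot be seen, and it gives no detection call. Array medians lay between 4.93 and 5.03. Probe sets were named from the platform annotation, which can be old: 23521 had 1 gene symbol, 1814 several and 9810 none. Where a gene had several, the probe set brightest on average across the 12 arrays stood for it. No filter was applied.

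Groups were compared with limma 3.58.1 in R 4.3.3 (lmFit, eBayes, no covariates), adjusting by Benjamini-Hochberg over 22180 genes and calling at 0.05. The exact two-sided permutation test used all 924 assignments, and the smallest p it can give is 0.0022. The fit was also run on simulated data in which each gene was drawn independently. That run did not cover genes that move together from array to array, and no result here rests on it. The members and lists were chosen with earlier results of these data known. From each pathway list up to 4 passing genes with the lowest p were named, or 2 where none passed, and up to 3 from each marker list. Other names were chosen after their values were seen. Promoters are RefSeq windows on GRCm38.p6. Tables and plots used Python 3.11.15, pandas 2.3.3 and matplotlib 3.10.9. Alternatives covered array scaling, variance moderation, array weights, a filter on dim genes, probe set choice, the test and the arrays used.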

Additional observations from a re-analysis of the deposited data

Results flagged for a closer look

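In 7 of 94 groups of 6 arrays checked (35 members and 12 other named genes), 1 array stood apart from its nearest neighbour by more than 0.625 of the group's whole range; chance gives about 1 in 20. Ddx58 was lowest in GFP 4 at 7.44 (next 7.67), and Eif2ak2 was lowest in the same array at 6.89 (next 7.22). Isg15 was lowest in GFP 2 at 5.50 (next 5.74). Oas2 was highest in GFP 3 at 6.52 (next 6.16). Trim30a was lowest in hApoF 7 at 4.73 (next 5.27), and Rtp4 in the same array at 7.30 (next 8.07). Ifna2 was highest in hApoF 10 at 4.78 (next 4.01).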

How the results depend on the processing

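No paired analysis was possible because the groups share no replicate numbers. The number of members lower in hApoF was 0 as reported, 1 with trend and robust settings, 1 with array weights and 2 among genes with a mean above the median of all means. The number higher was 1 after a further quantile normalization. Leaving out 1 array gave 0 to 3 lower members (2 without GFP 4, 3 without hApoF 9) and 0 higher, a median difference of -0.18 to -0.07, and 1015 to 1988 changed genes over the whole array. Receptor and JAK-STAT genes had 1 lower with trend and robust settings, with array weights, among brighter genes and without GFP 4 and hApoF 12 together, and 1 higher after quantile normalization and in the exact permutation test (0 to 1 in each direction with 1 array left out). Sensing genes had 2 lower in the same 4 settings, 0 in the permutation test, and 1 higher with array weights and without GFP 4 and hApoF 12 (0 to 2 lower and 0 to 1 higher with 1 array left out). The other interferon-stimulated genes had 3 to 8 lower with 1 array left out (8 without GFP 4). Signs turned, with no call on either side, for Ifit3 (0.01), Mx1 (-0.02) and Samd9l (0.01) after quantile normalization, Mx1 (-0.01) with array weights, and Herc6 (-0.04), Ifit2 (-0.0004) and Mx1 (-0.02) without GFP 4 and hApoF 12. With 1 array left out, signs also turned within -0.08 to 0.06 for Irf7, -0.04 to 0.13 for Isg15, -0.07 to 0.09 for Herc6, -0.02 to 0.19 for Ifit1, -0.09 to 0.0006 for Ifit3, -0.03 to 0.14 for Mx1, -0.09 to 0.01 for Bst2 and -0.10 to 0.02 for Samd9l. The median of all genes was 0.03 as deposited and 0.02 after centring or quantile normalization. The cause was not tested.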
